A study of Danio rerio with 2 samples.

Results

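The cells described here are the 663 cells with high *sox32*, of 16773 cells profiled by single-cell RNA sequencing of shield-stage zebrafish embryos. They were selected on their own measured values: a cell entered when it held at least 3 unique molecular identifiers (UMIs, each standing for 1 captured RNA molecule) of *sox32* (ENSDARG00000100591) and fewer than 10 UMIs summed over the keratin genes *krt4*, *krt5*, *cyt1* and *cyt1l*. The wildtype library held 304 such cells among 8862 and the library of MZwnt11/slb embryos, which are maternal-zygotic mutants of *wnt11f2* (the silberblick gene), held 359 among 7911. Each genotype was represented by 1 library of whole embryos at shield, without an added agent, and the number of embryos pooled per library was not given in the sources used here. Genotype and library therefore cannot be told apart, and each value below describes these libraries. The counts used here hold no base sequence, so the mutated bases of *wnt11f2* were not examined and the genotype labels were not checked by them.

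*sox32* encodes a Sox-family transcription factor that is switched on at the blastoderm margin by Nodal signalling, together with Mixl1 and Gata5, and is required for zebrafish endoderm. It turns on *sox17* in endoderm progenitors, which then leave the margin as scattered single cells; their movement depends on the chemokine receptor gene *cxcr4a*. *sox32* is also transcribed in the yolk syncytial layer, the nucleated outer layer of the yolk cell, and in the dorsal forerunner cells, a small dorsal group that later forms the ciliated organ of left-right asymmetry. A selection on *sox32* can thus collect several embryonic origins, and the keratin limit was aimed at the enveloping layer, the outer epithelium of the embryo.

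The libraries held 37370253 and 40025626 UMIs, and throughout the first of a pair of values belongs to wildtype and the second to MZwnt11/slb. The high-*sox32* cells had a median of 3725 and 4612 UMIs per cell, beside 3880 and 4594.5 in all other cells of their library, and a median mitochondrial share of 5.90% and 6.03% beside 5.95% and 5.34%. The libraries shared 16 barcodes, 0 of which belonged to a high-*sox32* cell in both libraries. Levels are in CPM, the UMIs of a gene summed over a group of cells, divided by all UMIs of that group and scaled to 1000000. Intervals are exact 95% intervals (Poisson for sums and ratios, Clopper-Pearson binomial for shares) and cover counting error only, since cells of 1 library are not replicates. Where a sum was 0, a ratio was set against a floor of 3 UMIs and is given as a bound.

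In wildtype, the high-*sox32* cells made up 3.43% of the library (95% interval 3.06–3.83). In MZwnt11/slb they made up 4.54% (4.09–5.02). With every cell thinned to 3000 UMIs before the selection, which left out cells shallower than that, including 33.2% and 15.6% of the high-*sox32* cells and 26.5% and 14.2% of the other cells, the shares were 2.59% (2.22–3.00) and 3.82% (3.38–4.30). The intervals of the libraries did not overlap in either form, and the share was higher in MZwnt11/slb.

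*sox32* itself was concentrated in few cells. It gave 2954 and 4135 UMIs in the libraries, of which the selected cells held 84.6% and 79.9%, and 8294 and 7269 cells had none. A selected cell held a median of 7 and 8 *sox32* UMIs, up to 47 and 28, and 102 and 146 cells held at least 10. At the edge of the selection, 35 and 26 cells had exactly 3 *sox32* UMIs, and 44 and 52 cells under the keratin limit stayed out with 2. No keratin UMI was found in 189 and 205 of the selected cells, whereas 17 and 24 held 5 to 9. On the other side of the keratin limit were 19 and 39 cells with at least 3 *sox32* UMIs, of which 4 and 10 had 10 to 15 keratin UMIs.

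Markers of other embryonic groups split the high-*sox32* cells into 3 sets. The first carried at least 3 UMIs summed over 10 yolk syncytial layer genes (*mxtx1*, *mxtx2*, *slc26a1*, *slc40a1*, *hnf4a*, *mttp*, *apobb.1*, *apoa2*, *afp4* and *cebpa*, which serve yolk cell transcription, transport and lipoprotein export). It took in 67 wildtype cells, 22.0% (17.5–27.1) of those selected, and 40 MZwnt11/slb cells, 11.1% (8.08–14.9). After thinning the shares were 14.8% (10.2–20.4) and 8.91% (5.95–12.7), with overlapping intervals. Among all other cells, 1.45% and 1.42% met the same limit. Among the selected cells, 48 and 23 held at least 20 such UMIs, 19 and 17 held 3 to 19, 30 and 40 held 1 or 2, and 207 and 279 held 0. Of the 94 and 29 cells in the libraries with at least 20 such UMIs, 51.1% and 79.3% were high-*sox32* cells.

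The second set held a UMI of *foxj1a*, the master gene of motile cilia and a marker of dorsal forerunner cells, without the yolk markers. It held 9 and 15 cells, and this split was chosen after the data had been examined. *foxj1a* was rare in the libraries, with 52 and 82 UMIs in all. Counting also 2 wildtype cells with yolk markers, it was found in 3.62% and 4.18% of the high-*sox32* cells and in 0.140% and 0.238% of all others. A broader limit of at least 2 UMIs over *foxj1a* and *vgll4l* (which encodes a Vestigial-like co-factor) took in 35.2% and 31.5% of the selected cells and 11.9% and 8.0% of the others, and it was not used to name cells.

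The third set comprised the remaining 228 and 304 cells, 75.0% (69.7–79.8) and 84.7% (80.5–88.2) of those selected. They made up 2.57% (2.25–2.92) of all wildtype cells and 3.84% (3.43–4.29) of all MZwnt11/slb cells. The label of endoderm progenitors was looked at in these cells with *sox17*, an endoderm gene that is also on the list of dorsal forerunner genes. A UMI of it was detected in 29.8% and 36.8% of them, beside 0.60% and 1.10% of enveloping layer cells. Median depths were 3794 and 4622 UMIs here and 5152.5 and 5489 there. That background had no limit on *sox32*. In the second set, 6 of 9 and 12 of 15 cells had *sox17*, so it cannot tell endoderm from forerunner cells. A UMI of *noto*, another gene of the forerunner list, was found in 18 cells of the third set in each library. Whether the third set still held forerunner cells was not tested. Over the keratin limit lay 19 and 39 cells with at least 3 *sox32* UMIs, of which 6 and 21 had *sox17*. In the third set, 75.0% and 70.7% of the cells held at least 3 UMIs of the mesoderm genes *msgn1*, *mespaa*, *mespab* and *mespba*, compared with 11% and 12.3% of all other cells. Since most lacked a *sox17* UMI and carried these mesoderm transcripts, they are called remaining high-*sox32* cells below.

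**Figure D1:**
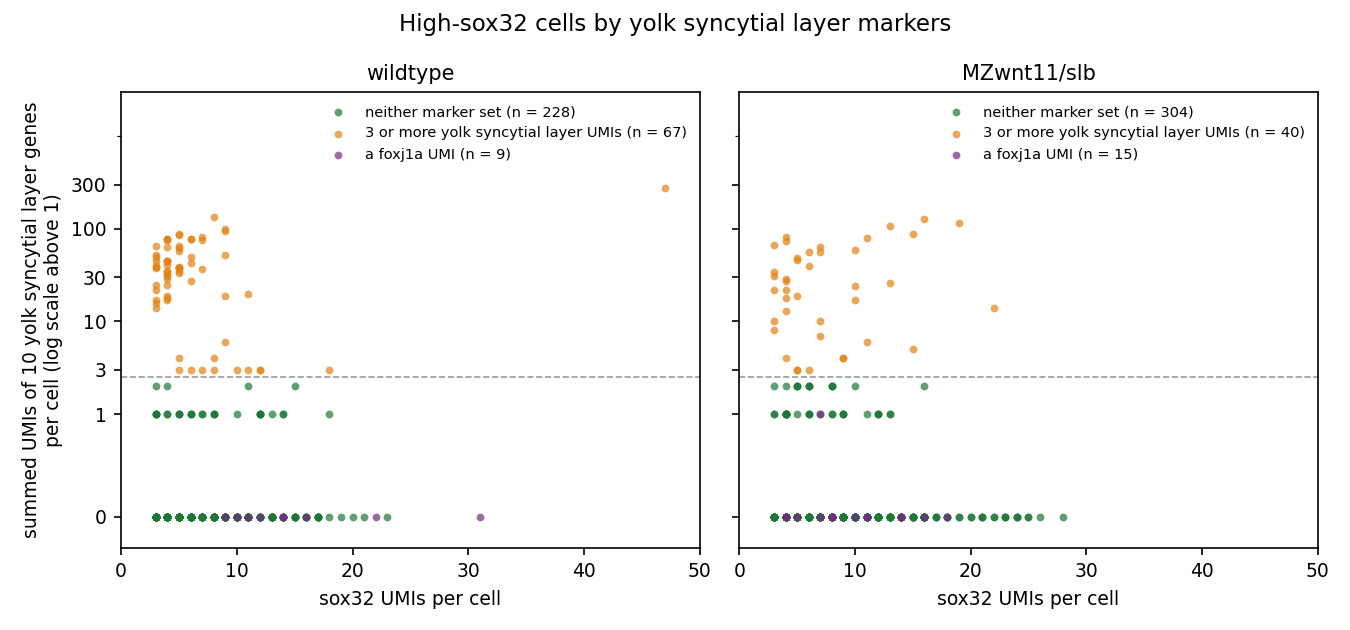
UMIs of *sox32* (x axis) against summed UMIs of the 10 yolk syncytial layer genes (y axis) in each high-*sox32* cell, with the wildtype and MZwnt11/slb libraries in separate panels and colours for the 3 sets. The 67 and 40 cells with yolk markers reach 277 and 129 such UMIs, while the remaining cells and those with *foxj1a* stay below 3.

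All high-*sox32* cells were set against all other cells of their library first. Because the cells were picked on *sox32*, this is a description of what the selection collected and was not tested. A total of 3887 genes reached 100 UMIs in the selected cells, and of these 197 were at least 2-fold higher in both libraries (5.07% of those examined) and 48 were at least 2-fold lower (1.23%). Over all these genes the median log2 ratio was −0.04 and 0.01.

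The gene with the highest ratio was *sox17* (ENSDARG00000101717), at 131 CPM in the wildtype high-*sox32* cells against 0.832 in the other cells, and at 147 against 2.39 in MZwnt11/slb. Its log2 ratio was 7.30 (6.73–7.91) and 5.94 (5.60–6.30). The next highest genes included *cahz*, a carbonic anhydrase (5.85 and 5.42), *spns2*, a sphingosine-1-phosphate exporter (5.71 and 5.25), *apoa1a*, an apolipoprotein (5.33 and 5.22), and *mttp*, which loads lipid onto lipoproteins (4.97 and 4.60). *mxtx1*, a homeobox gene of the yolk syncytial layer, was at 5.04 and 4.78. The sphingosine-1-phosphate receptor gene *s1pr5a* was at 4.48 and 4.41.

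These highest genes rested largely on the set with yolk markers. The cells with yolk markers or *foxj1a* were then left out, an alternative chosen after seeing the data. Of the 25 genes ranked highest, 10 turned below the other cells in wildtype and 4 did in MZwnt11/slb. Counted in either direction, 14 and 7 came within 2-fold of the other cells, and these counts can include genes that turned. *sox17* and *s1pr5a* kept ratios over 2-fold. Of the genes called higher in all high-*sox32* cells, 115 were also called in the remaining cells, which is 58.4% of the first list and 94.3% of the second. The lowest genes were *krt92* (−5.60 and −5.62), *krt17* (−5.48 and −6.27), the plakin gene *eppk1* (−4.87 and −4.97) and other epithelial genes such as *krt97*, *ppl* and *evpla*. These are genes of the enveloping layer, which the keratin limit keeps out of the selection.

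In the remaining high-*sox32* cells, 122 of 3369 genes were at least 2-fold higher than in all other cells in both libraries (3.62%) and 43 were lower (1.28%), and the median log2 ratio over these genes was −0.01 and 0.02. Since genes had to reach 100 UMIs within these cells, a gene that is low elsewhere could pass that minimum only by being high in them, and the counts over lists below describe the cells and support nothing further. Of the 12 endoderm genes downstream of *sox32*, 6 passed the minimum and those 6 were higher, with a median log2 ratio of 1.98 and 2.05. The regulators upstream of *sox32* had 5 of 8 higher and 0 lower, at 1.82 and 1.36, and the Nodal genes had 3 of 8 higher and 1 lower, at 1.22 and 0.74. As summed CPM, the downstream, upstream and Nodal lists were at 1652 and 1701, 5503 and 5380, and 2354 and 2106. In other cells named by *gsc*, *frzb* and *nog1* they were at 1972 and 2097, 4926 and 5349, and 3193 and 2995. In other cells named by *msgn1* and the *mesp* genes they were at 337 and 497, 4895 and 4918, and 1972 and 1640. These lists and the selection were drawn up with earlier results of these data known.

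Among the regulators that act before *sox32*, the GATA factor gene *gata5* was at 440 CPM in wildtype and 380 in MZwnt11/slb, compared with 32.5 and 34.5 in other cells. That is a log2 ratio of 3.76 (3.60–3.92) and 3.46 (3.32–3.60). Its relative *gata6* stood at 373 and 430 CPM against 26.4 and 37.4, a ratio of 3.82 (3.64–3.99) and 3.52 (3.39–3.65). Both genes were detected in most of these cells: *gata5* in 80.7% and 81.9%, and *gata6* in 71.1% and 82.9%, whereas the enveloping layer cells had a *gata5* UMI in 1.80% and 1.47% and a *gata6* UMI in 2.04% and 2.82%. The Nodal-induced homeobox gene *mixl1* was at 2.36 (2.20–2.52) and 1.57 (1.44–1.69). *fscn1a*, which encodes an actin-bundling protein of cell protrusions, had a UMI in every remaining cell and was at 2.62 (2.56–2.69) and 2.14 (2.09–2.19). The zinc-finger gene *osr1* was at 1.28 and 1.15. The maternal pluripotency factor genes were near the level of other cells, with *nanog* at −0.12 and 0.15 and *pou5f3* at −0.40 and −0.42, as was the homeobox gene *sebox* at 0.36 and 0.39.

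Of the genes that follow *sox32*, *sox17* gave 123 and 219 UMIs in these cells, 124 and 134 CPM against 0.832 and 2.39 in other cells, a log2 ratio of 7.22 (6.64–7.85) and 5.81 (5.45–6.18). Single cells held 0 to 9 and 0 to 7 *sox17* UMIs with a median of 0. *cxcr4a* was at 779 and 817 CPM against 204 and 388, a ratio of 1.93 (1.82–2.04) and 1.08 (0.99–1.16). It was detected in 84.6% and 94.1% of these cells, but also in 51.1% and 69.2% of ventral ectoderm cells, whose median depth was 5013 and 5657 UMIs. The forkhead genes of later gut endoderm were higher too: *foxa2* at 3.61 (3.20–4.0) and 2.41 (2.07–2.74), detected in 19.3% and 21.4% of the cells, and *foxa3* at 1.99 (1.75–2.21) and 1.79 (1.66–1.92). *her5*, a Hairy-related repressor gene of early endoderm, was at 1.97 and 2.32, and *vgll4l* was at 1.63 and 1.52.

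Within the Nodal pathway, the feedback inhibitor gene *lft2* stood furthest from the other cells, at 293 and 267 CPM against 14.7 and 24.4, a log2 ratio of 4.32 (4.11–4.53) and 3.45 (3.29–3.62). The ligand gene *ndr1* was at 2.47 (1.94–2.97) and 2.28 (1.87–2.67), on only 38 and 64 UMIs. The other ligand gene *ndr2* was at 1.46 and 0.86, under the 2-fold limit in MZwnt11/slb. The type I receptor gene *acvr1ba* was at 1.64 and 1.45, and the co-receptor gene *tdgf1* at 0.99 and 0.62. The co-ligand gene *gdf3*, which is maternally supplied, was near the level of other cells at 0.06 and −0.11. *foxh1*, whose product binds DNA with Smad2, was the 1 list gene that was lower, at −1.55 (−1.86 to −1.26) and −1.65 (−1.91 to −1.41).

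**Figure D2:**
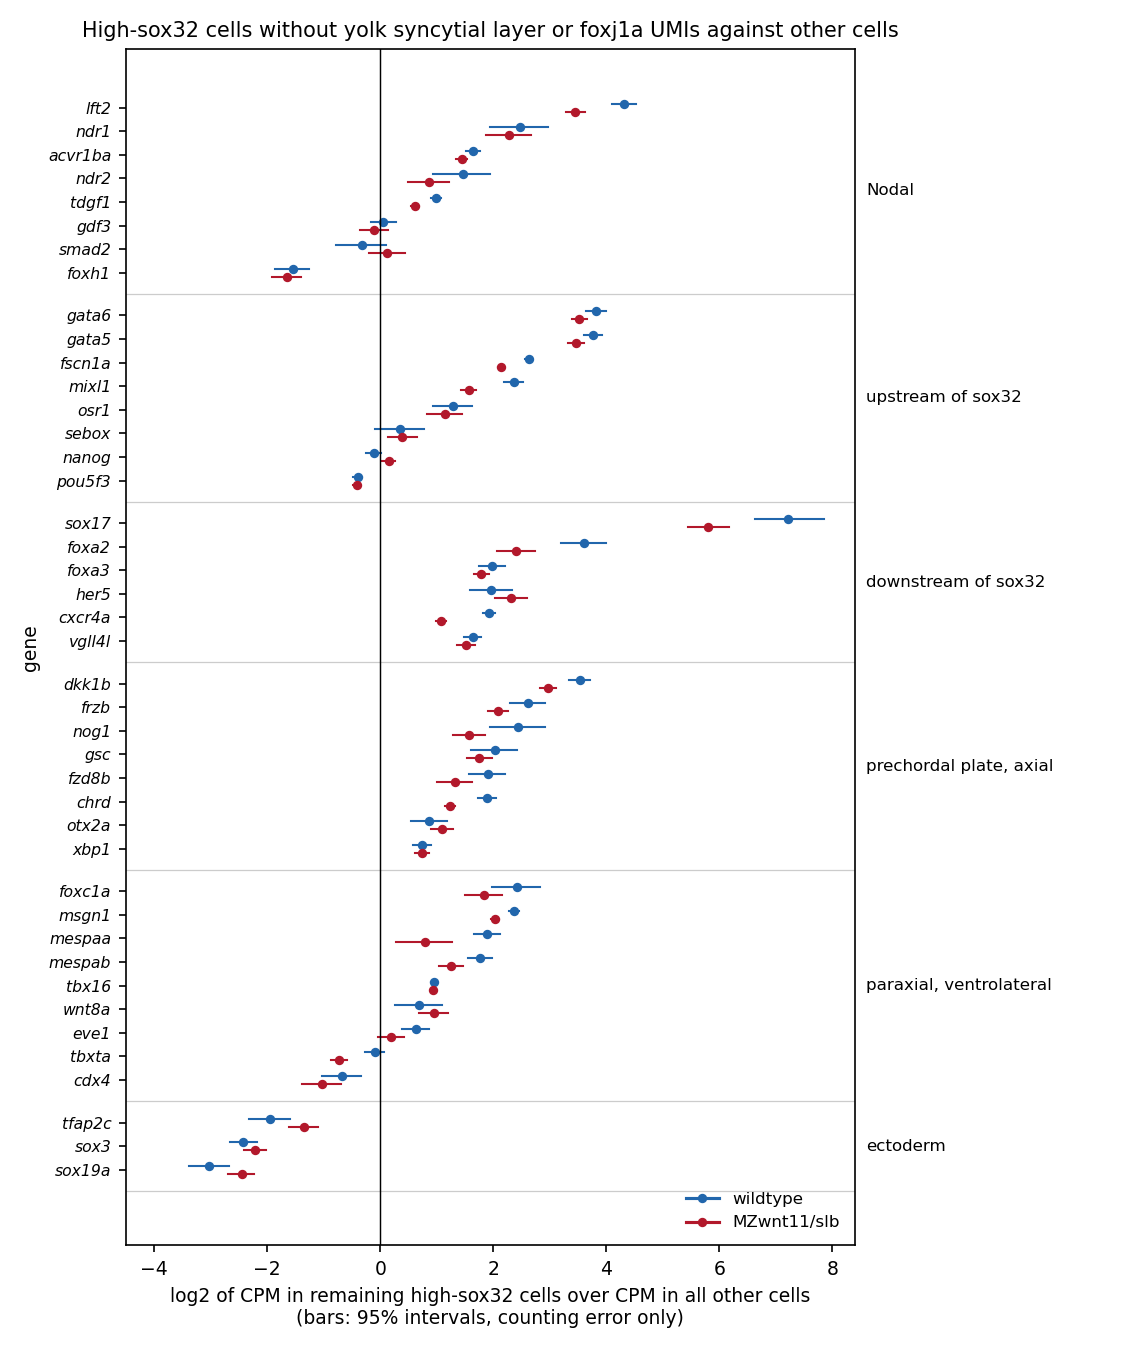
Log2 ratio of the remaining high-*sox32* cells over all other cells of the same library (x axis) for genes of the Nodal, endoderm, axial, paraxial and ectoderm lists (y axis), with points for wildtype and MZwnt11/slb and 95% counting intervals as bars. *sox17*, *lft2*, *gata5* and *gata6* lie at the right in both libraries, and *sox3*, *sox19a* and *tfap2c* at the left.

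By the size of the ratio alone, *sox17* was followed in these cells by *s1pr5a* (4.12, 3.82–4.42, and 4.31, 4.05–4.56), detected in 44.3% and 51.3% of them, and by *lmo1*, which encodes a LIM-only transcriptional co-factor (4.05 and 3.87). *dkk1b*, a secreted Wnt inhibitor gene, was at 3.53 and 2.97. *flrt3*, a transmembrane protein gene tied to FGF signalling and cell adhesion, was at 3.17 and 3.03. The fatty acid elongase gene *elovl6* (3.72 and 3.38), the zinc-finger gene *sp5a* (3.65 and 3.25), the secreted-factor gene *ism1* (3.60 and 3.19) and the inhibitor-of-differentiation gene *id3* (3.12 and 2.96) were also among the 25 highest.

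Mesodermal and axial genes were present beside the endodermal ones. *msgn1*, a helix-loop-helix gene of presomitic mesoderm, was at 1221 and 1146 CPM against 235 and 279 in other cells, a log2 ratio of 2.37 (2.29–2.46) and 2.04 (1.97–2.11). A cell held 0 to 26 *msgn1* UMIs in wildtype and 0 to 52 in MZwnt11/slb, with a median of 4 in both, and 87.3% and 87.2% of the cells had one, compared with 6.47% and 5.89% of enveloping layer cells. Of the 9 measured genes of the paraxial and ventrolateral list, 3 were higher, including the forkhead gene *foxc1a* (2.41 and 1.84). The T-box gene *tbx16* was at 0.95 and 0.94, and its relative *tbxta* at −0.10 and −0.73.

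The prechordal plate and axial list had 6 of 8 measured genes higher, with a median of 1.96 and 1.45. The secreted Wnt antagonist gene *frzb* was at 2.61 and 2.09 and the homeobox gene *gsc* at 2.03 and 1.75. The BMP antagonist genes *nog1* (2.44 and 1.57) and *chrd* (1.89 and 1.24) were higher as well. Cells with at least 3 UMIs over *gsc*, *frzb* and *nog1* made up 7.02% (4.06–11.1) and 15.8% (11.9–20.4) of the remaining cells, and 3 and 14 cells also met the limit for *msgn1* and the *mesp* genes. Neither limit was met by 44 and 55 cells, 19.3% and 18.1%.

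Ventral genes did not all go one way. Of 10 measured, 3 were higher and 1 lower, with the ventral homeobox gene *vent* at 2.07 and 2.25 and the BMP ligand gene *bmp2b* at 1.01 and 1.62, whereas the BMP target gene *id1* was at −1.64 and −1.83. The 3 measured ectoderm genes were all lower. The neural Sox genes *sox3* and *sox19a* were at −2.42 and −2.22 and at −3.02 and −2.45, and the AP-2 factor gene *tfap2c* at −1.94 and −1.36. The germ cell helicase gene *ddx4* was at 0.99 and 0.92, below 2-fold, and 0 of 3 measured germ cell markers passed.

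Genes of adhesion, migration and guidance had 8 of 15 measured members higher and 2 lower, with a median of 1.25 and 1.08. The N-cadherin gene *cdh2* was at 2.38 and 2.06, and the Snail repressor gene *snai1a* at 2.36 and 2.01. The chemokine scavenger receptor gene *ackr3b* was at 1.84 and 2.16. Its ligand genes *cxcl12a* (1.16 and 1.22) and *cxcl12b* (1.67 and 1.63) were higher over this set, as was the receptor gene *cxcr4a*. Whether single cells held both ligand and receptor transcripts was not tested. The hyaluronan synthase gene *has2* stood at 1.82 and 2.21. The paralogous receptor gene *cxcr4b* was lower, at −2.22 (−2.65 to −1.82) and −1.99 (−2.25 to −1.73). The Apelin receptor gene *aplnrb* was at 1.87 and 1.53, and its ligand gene *apela* at −2.10 and −1.68. Among 8 measured Wnt and planar polarity genes only the Frizzled receptor gene *fzd7a* passed in both libraries, at 1.83 and 1.55. None of the 14 S phase, 13 G2/M, 7 FGF or 4 p53 response genes measured passed in both libraries.

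The remaining cells were then set against 863 and 839 other cells named by *msgn1* and the *mesp* genes. *sox17* gave 123 against 1 UMI in wildtype, a log2 ratio of 8.82 (6.32–14.14), and 219 against 4 in MZwnt11/slb, a ratio of 7.23 (5.85–9.12). *ackr3b* was at 4.71 (4.03–5.46) and 5.73 (4.99–6.59) and *cxcr4a* at 3.47 (3.27–3.68) and 2.49 (2.35–2.62), both further apart than against all other cells. *lft2* was at 2.28 and 2.5, and *s1pr5a* at 2.36 and 2.11. *gata6* (1.32 and 1.18), *gata5* (0.83 and 0.98) and *fscn1a* (0.52 and 0.49) were closer to the mesodermal level, and *mixl1* lay below it (−0.40 and −0.77). *tbxta*, a T-box gene of axial and posterior mesoderm, was at 322 and 236 CPM against 1236 and 1192, a ratio of −1.94 (−2.11 to −1.78) and −2.34 (−2.49 to −2.19). The T-box gene *tbx16l* (−2.14 and −2.76) and the posterior homeobox gene *cdx4* (−1.96 and −1.90) were likewise lower than in the mesodermal cells.

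Against the 83 and 191 other cells named by *gsc*, *frzb* and *nog1*, the remaining cells carried more *cxcr4a* (3.85, 3.16–4.63, and 3.05, 2.75–3.36) and more of the ventral genes *vent* (5.63, 4.08–7.92, and 4.48, 3.86–5.18) and *bmp2b* (3.43 and 3.26). *sox17* was undetected in the 83 wildtype cells, so the log2 ratio was at least 3.70, and gave 2 UMIs in the 191 MZwnt11/slb cells, a ratio of 6.05 (4.18–9.10). *fscn1a* was close in level, at 0.05 (−0.07 to 0.17) and −0.02 (−0.09 to 0.05). The axial genes were lower, with *chrd* at −3.61 and −2.84, the notochord homeobox gene *noto* at −3.37 and −4.22, *ndr2* at −3.00 and −2.93 and *foxa3* at −2.97 and −2.14. *lft2* was at −0.96 and −0.97. The remaining high-*sox32* cells held *sox17* and *cxcr4a* at higher levels than both groups and *lft2* between the levels of both. Both groups left out every high-*sox32* cell. *sox17* and *cxcr4a* were both higher in cells with high *sox32* counts, as given below, so neither gap is independent of the selection. The selection's part in these gaps was not tested. The axial list summed to 1448 and 1890 CPM in the remaining cells and 579 and 665 in the paraxial group. It summed to 604 and 918 in all other cells and 13277 and 11234 in the group named by axial genes.

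**Figure D3:**
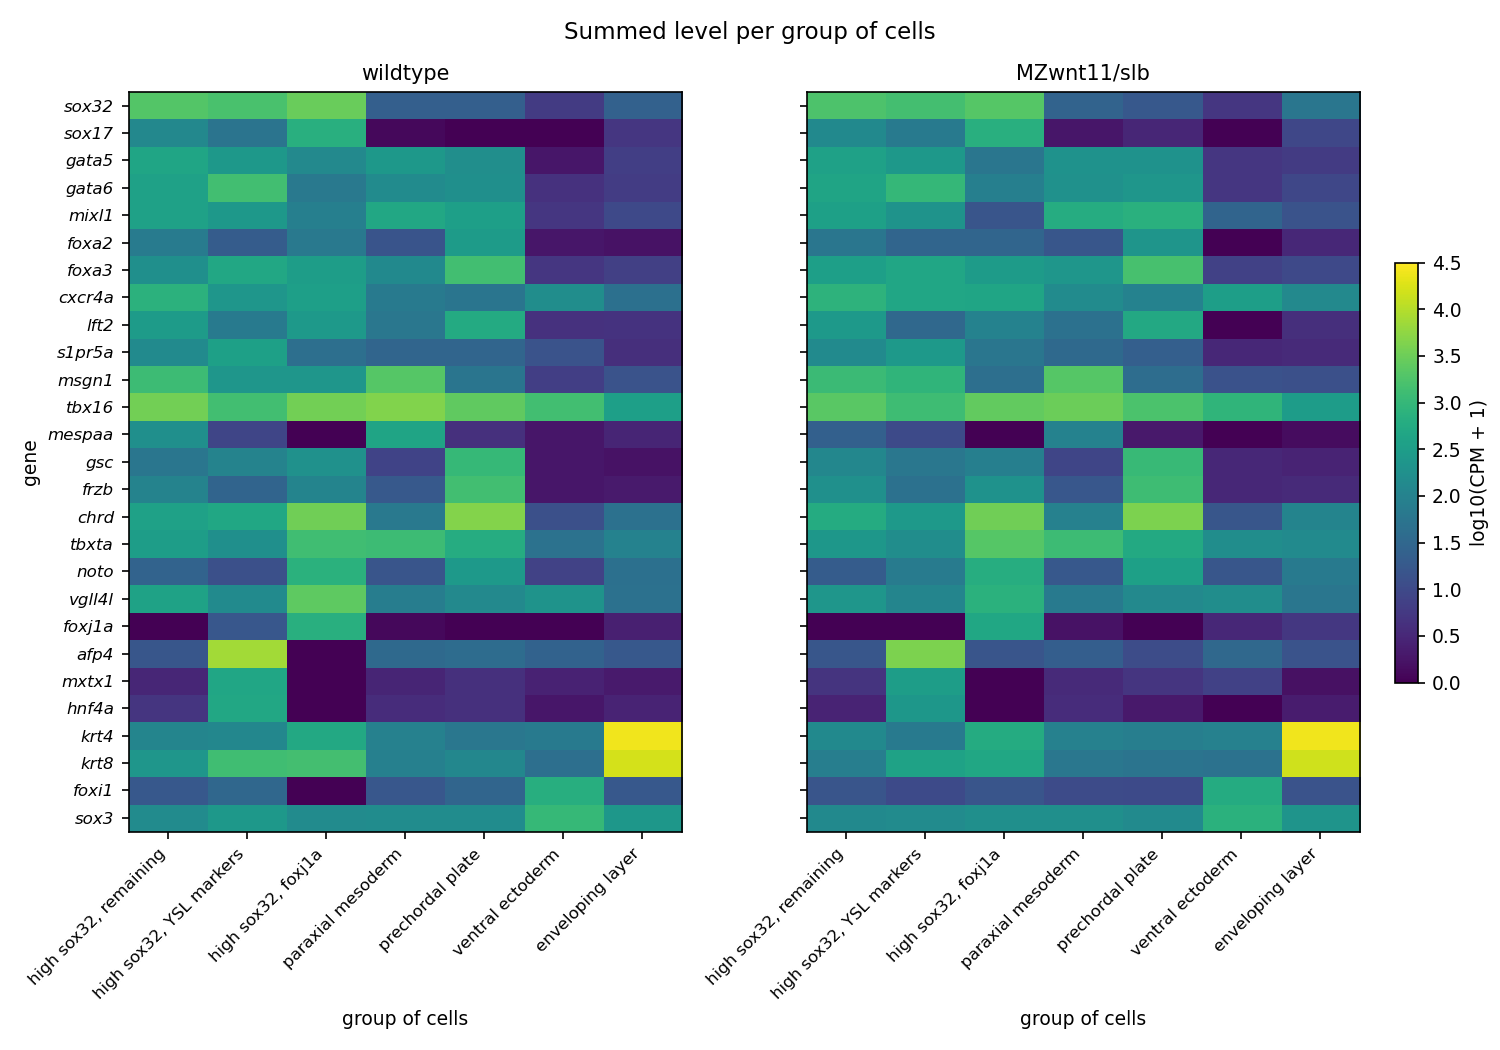
Heat map of log10(CPM + 1), from dark for 0 to yellow for the highest level, for 27 genes (y axis) in 7 groups of cells per library (x axis), where the groups are the 3 sets of high-*sox32* cells and cells named by prechordal plate, paraxial mesoderm, ventral ectoderm and enveloping layer markers. *sox17* is lighter in the 3 high-*sox32* sets than in the other groups, *gata5* and *gata6* are shared with the paraxial mesoderm and prechordal plate groups, and *afp4*, *mxtx1* and *hnf4a* are lightest in the set with yolk markers.

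Levels were followed along the *sox32* count, from cells with 0 to cells with at least 10 UMIs, among cells without yolk markers, *foxj1a* or a keratin count over the limit. *sox17* was at 0.134 and 0.324 CPM where *sox32* was 0, at 30.9 and 20.7 where it was 3, and at 197 and 175 where it was at least 10. *cxcr4a* was at 230 and 432 CPM in the first class, 432 and 579 in the class with 3 UMIs and 958 and 1033 in the last. *gata5* behaved otherwise: 31.5 and 33.0 CPM at 0, 344 and 335 already at 2 UMIs, and 473 and 409 in the last class.

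Cells just outside the selection already held several of these genes well above the level at 0. At 2 *sox32* UMIs, in 29 and 39 cells, *msgn1* was at 1324 and 1526 CPM and *mixl1* at 380 and 607, compared with 1114 and 1166 and with 353 and 295 in the class of at least 10. *s1pr5a* was at 106 and 68.1 CPM with 2 UMIs and at 144 and 168 in the last class. In MZwnt11/slb the intervals of *msgn1*, *mixl1* and *s1pr5a* did not overlap between these classes. *sox17* and *cxcr4a* were higher in the last class than at the limit in both libraries, whereas the counting intervals of *gata5* overlapped between these classes and *msgn1* was lower in the last class in wildtype and near its earlier level in MZwnt11/slb. A cell's *sox32* count also depends on how deeply it was read.

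**Figure D4:**
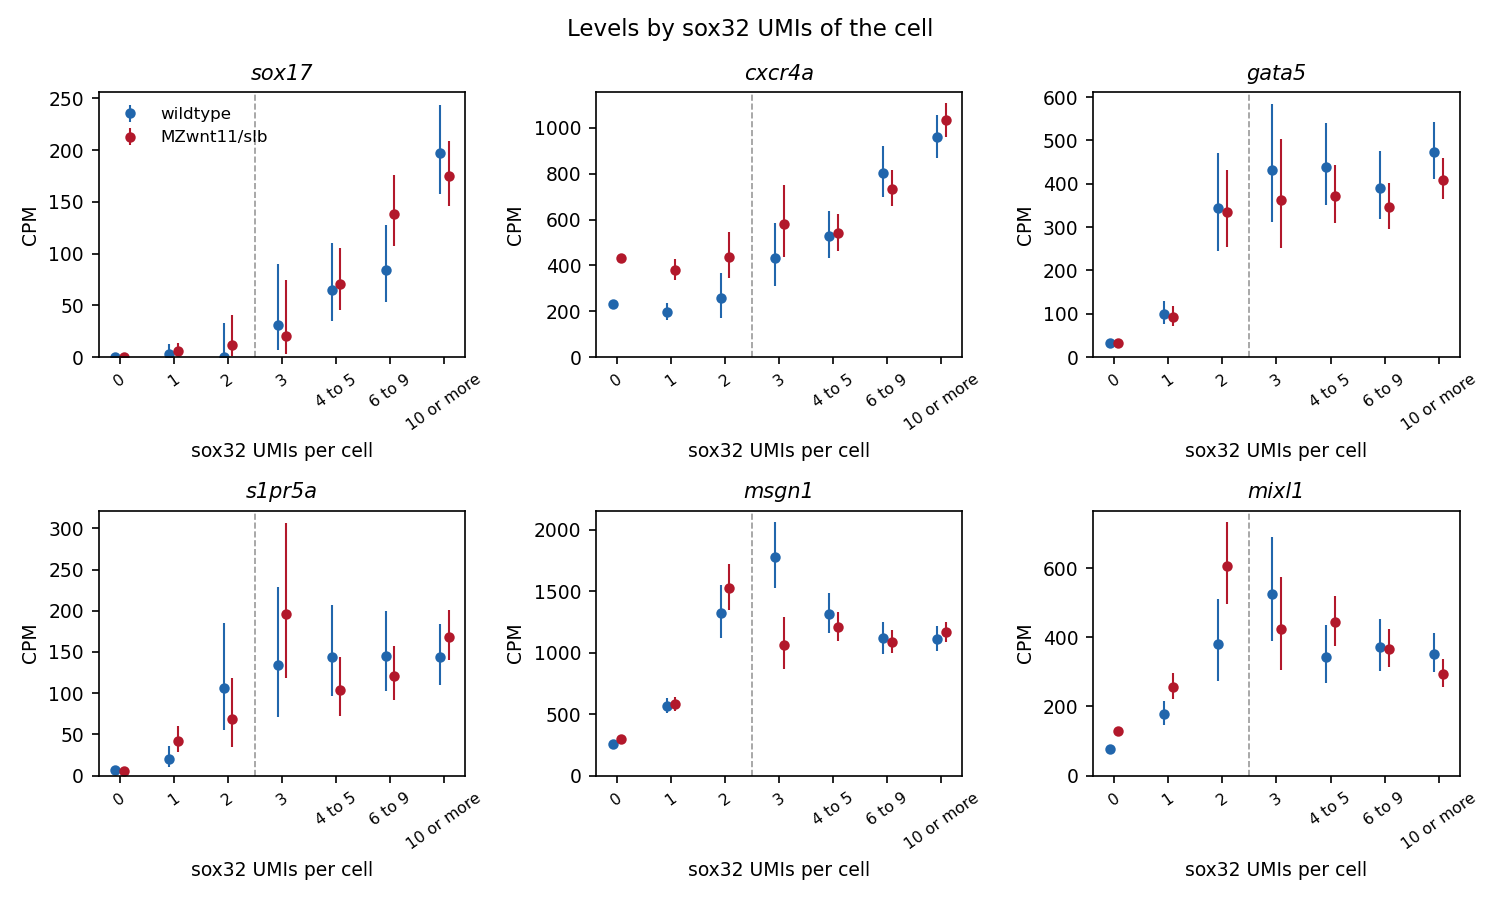
CPM (y axis) of *sox17*, *cxcr4a*, *gata5*, *s1pr5a*, *msgn1* and *mixl1* in cells grouped by their *sox32* UMIs (x axis: 0, 1, 2, 3, 4 to 5, 6 to 9, at least 10), for wildtype and MZwnt11/slb with 95% counting intervals and a dashed line at the limit of 3 UMIs. *sox17* reaches 197 and 175 CPM in the last class, while *gata5* is at 344 and 335 CPM before the limit.

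The correlation of genes with *sox32* from cell to cell is given as a description over 228 and 304 cells of 1 library each. Their depth ran from 1289 to 12128 and from 1866 to 19405 UMIs, and the selection cut their range of *sox32*. The genes most like *sox32* were *cxcr4a* (Pearson's r 0.35 and 0.38), *vgll4l* (0.31 and 0.34), *fscn1a* (0.23 and 0.28), *sox17* (0.23 and 0.29), *ackr3b* (0.22 and 0.33) and *flrt3* (0.18 and 0.27). After thinning, in 163 and 262 cells, *cxcr4a* was at 0.15 and 0.28 and *sox17* at 0.20 in both. *gata5* was lower in this order at 0.13 and 0.10, and *gata6* (−0.02 and 0.04) and *msgn1* (−0.07 and 0.05) had opposite signs in the libraries, while *mixl1* was at −0.13 and −0.09. At the other end were *apela* (−0.32 and −0.42, and −0.12 and −0.26 after thinning) and *tfap2c* (−0.34 and −0.30, and −0.27 and −0.23 after thinning). Over 4020 genes, the highest 2.5% of r began at 0.094 and 0.084, so *gata5* was within it in both libraries.

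The 67 and 40 high-*sox32* cells with yolk markers had a profile of their own. Their median depth was 2926 and 3997 UMIs, and their 10 marker genes, which chose them, summed to 11223 and 6824 CPM, compared with 34.3 and 31.7 in the remaining cells, 80.6 and 33.8 in all other cells and 30.5 and 36.2 in the enveloping layer. The yolk gene *afp4*, summed over its identifiers, was at 7417 and 4169 CPM and found in 67 of 67 and 39 of 40 cells. Genes outside the marker list were higher with it. The cathepsin gene *ctsll* had a log2 ratio over the remaining cells of 7.60 and 8.09, the liver-secreted protein gene *fetub* one of 8.36 (6.79–10.64) and 7.86 (6.80–9.20), and *cahz* one of 6.61 and 5.73.

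Some endoderm genes were shared with the remaining cells and some were not. *gata6* was at 1369 and 1001 CPM in the cells with yolk markers, compared with 373 and 430, a log2 ratio of 1.88 (1.66–2.09) and 1.22 (0.99–1.44). Its relative *gata5* lay the other way, at −0.82 and −0.58. *sox17* was at 53.8 and 69.5 CPM, or −1.21 (−2.12 to −0.41) and −0.94 (−1.81 to −0.19), on 14 and 15 UMIs. Most of the wildtype UMIs lay in cells near the limit of the set: with the set divided at 20 yolk marker UMIs, a division chosen after seeing the data, the 19 cells below it held 13 *sox17* UMIs and the 48 above it held 1. In MZwnt11/slb the 17 and 23 cells held 7 and 8, of which 6 were in 1 cell. *cxcr4a* was at 656 CPM below and 64.2 above this division in wildtype and at 779 and 173 in MZwnt11/slb, whereas *gata6* was at 670 and 1642 and at 409 and 1513. Over the whole set, *lft2* (−2.08 and −3.04), *cxcr4a* (−1.76 and −0.85) and *fscn1a* (−1.44 and −0.82) were lower. *msgn1* was at −2.40 in wildtype and −0.39 in MZwnt11/slb and was found in 25.4% and 55.0% of the cells. The *sox32* count was of a similar order as in the remaining cells, with a median of 5 and 6 and a highest value of 47 and 22.

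The 9 and 15 cells with *foxj1a* also carried other genes of dorsal forerunner cells. They held 0 and 1 UMI of the yolk markers and 9 to 31 and 4 to 18 *sox32* UMIs, with a median of 14 and 8. *noto* was at a log2 ratio over the remaining cells of 4.83 (4.05–5.62) and 5.0 (4.31–5.71), and *tbxta* at 2.03 (1.62–2.43) and 3.13 (2.85–3.41). *sox17* was at 702 and 697 CPM, 2.5 (1.90–3.06) and 2.38 (1.91–2.84), and was found in 6 of 9 and 12 of 15 cells. The dorsal BMP antagonist gene *chrd* was at 3.12 and 2.53. *msgn1* (−2.38 and −4.75), *mixl1* (−2.13 and −4.64), *gata5* (−1.79 and −2.74) and *gata6* (−2.55 and −2.33) were lower than in the remaining cells.

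Epithelial genes were high in the same cells. The claudin gene *cldne* was at 4.77 (4.35–5.19) and 5.33 (4.69–6.0), and the simple-epithelium keratin genes *krt8* and *krt18a.1* were at 2.58 and 2.55 and at 3.20 and 3.31. The enveloping layer list as a whole summed to 7914 and 4511 CPM in these cells, 879 and 518 in the remaining cells and 86688 and 75806 in enveloping layer cells, and 3 of the 10 dorsal forerunner genes were at 0 in each library. The keratin limit bore on this set. Of the 19 and 39 cells with at least 3 *sox32* UMIs that it kept out, 2 and 8 had *foxj1a*, with 5 and 38 UMIs. Those cells had a *sox17* level of 130 and 247 CPM, a *tbxta* level of 313 and 692 and a median of 6075 and 6577 UMIs. Whether they were doublets was not tested.

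The genotypes were compared within the selected cells, and the same ratio in all other cells of the libraries is given beside each value. Of 3890 genes in all high-*sox32* cells, 107 were at least 2-fold higher in MZwnt11/slb (2.75%) and 173 were at least 2-fold lower (4.45%). In the remaining cells, 103 of 3372 were higher (3.05%) and 95 lower (2.82%), and the median log2 ratio was 0.02. Of the 173 lower genes, 79 were also lower in the remaining cells, which is 45.7% of the first list and 83.2% of the second. The 7 measured yolk syncytial layer genes were all lower in MZwnt11/slb over all high-*sox32* cells, with a median of −1.43 beside −1.25 in the other cells. Among the cells with yolk markers alone, the median was −0.62 and 1 of the 7 was past 2-fold. Those cells were chosen by UMIs of the same genes in both libraries, so this median is tied to the choice. The share of cells with yolk markers was 22.0% and 11.1% of the selected cells and 1.45% and 1.42% of the others. Cells with at least 20 yolk marker UMIs numbered 94 and 29 in the libraries, of which 48 and 23 were selected. The 10 yolk genes summed to 80.6 and 33.8 CPM in the others. The part of these numbers of cells in the ratios was not tested.

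The genotype ratios of endoderm genes in the remaining cells are given with intervals that leave out the spread between embryos and libraries. An interval that holds 0 does not show equal levels. *sox17* was at a log2 ratio of 0.11 (−0.22 to 0.44), *cxcr4a* at 0.07 (−0.06 to 0.20), *mixl1* at −0.07 (−0.26 to 0.12), *lft2* at −0.13 (−0.35 to 0.09) and *foxa2* at −0.36 (−0.82 to 0.11), each with an interval that holds 0. *gata5* was at −0.21 (−0.39 to −0.03) and *gata6* at 0.21 (0.02–0.39). Of this group *foxa3* was set apart, at 1.0 (0.75–1.25), beside 1.19 in all other cells.

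In the other cells the same genes were higher in MZwnt11/slb. *sox17* was at 1.52 there, and the difference of the ratios, remaining minus other cells, was −1.42 (−2.09 to −0.74). Those other cells included the 19 and 39 cells with high *sox32* over the keratin limit, which held 17 and 73 *sox17* UMIs. Their part in this ratio was not tested. Under the keratin limit and without yolk markers or *foxj1a*, few *sox17* UMIs lay in unselected cells. Cells with 0, 1 and 2 *sox32* UMIs held 4, 2 and 0 in wildtype and 10, 4 and 2 in MZwnt11/slb. The *sox17* ratio of the other cells thus rests on few UMIs, many of them in high-*sox32* cells. For *foxa2* the other cells were at 0.84 and the difference was −1.20 (−1.70 to −0.69). *cxcr4a*, at 0.92 in the other cells, differed by −0.85 (−0.99 to −0.72), *lft2*, at 0.73, by −0.86 (−1.13 to −0.60), and *mixl1*, at 0.72, by −0.79 (−1.0 to −0.59). These intervals cover counting error only and carry no test of the genotype. The levels of these genes were closer between the libraries in the remaining cells than in all other cells. The remaining cells were held to the same minimum of 3 *sox32* UMIs in both libraries, whereas the other cells were not. How far this accounts for the closeness was not tested.

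Other genes were further apart between the libraries within the remaining cells, mostly as in the rest of the embryo. The Nodal inhibitor gene *lft1* gave 51 UMIs in wildtype and 0 in MZwnt11/slb, a log2 ratio of −4.81 or below, beside −5.03 in the other cells. The paper, which calls the gene *lefty1*, reports it as lower in the mutant in this sequencing. Its imaging nevertheless counted transcripts of the gene in mutant embryos at shield. Whether the missing UMIs come from how reads were assigned to genes was not tested. The mesoderm helix-loop-helix gene *mespaa* was at −2.93 (−3.48 to −2.42), beside −1.83, and the secreted BMP modulator gene *szl* at −2.91 (−3.48 to −2.39), beside −2.33. The heparan sulfatase gene *sulf1* was at −2.47 (−2.98 to −1.99), beside −2.13. *wnt11f2* itself was at 137 and 33.6 CPM, a ratio of −2.03 (−2.51 to −1.57), beside −1.22, and the receptor gene *fzd7a* was at −1.07 (−1.22 to −0.91), beside −0.79.

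Of the 8 measured prechordal plate and axial genes, 1 was at least 2-fold higher in MZwnt11/slb in the remaining cells and 0 were lower, with a median of 0.67 beside 0.94 in the other cells. *gsc* was at 1.07 (0.64–1.52), beside 1.34 in other cells, *frzb* at 0.79 (0.46–1.13), beside 1.31, and *chrd* at 0.62 (0.45–0.80), beside 1.27. The share of remaining cells that met the limit for *gsc*, *frzb* and *nog1*, 7.02% in wildtype and 15.8% in MZwnt11/slb, was 4.91% and 12.2% after thinning, and that share among all other cells was 1.26% and 3.22%. The ventral homeobox gene *ved* was at −1.0 (−1.15 to −0.86), beside −0.32.

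A few named genes were higher in MZwnt11/slb mainly in the selected cells, set against all other cells together. Some genes were named for the size of this gap, so for them it is no separate observation. The cardiac actin gene *actc1b* gave 6 and 97 UMIs, a log2 ratio of 3.29 (2.11–4.77), beside 0.79 in the other cells. *cyp26a1*, which degrades retinoic acid, gave 12 and 111 UMIs, a ratio of 2.48 (1.62–3.48), beside 0.50, and the co-activator gene *cited2* was at 1.64 (0.90–2.46), beside 0.29. In the opposite direction, *cldne* was at −2.09 (−2.72 to −1.50), beside −0.30, and *krt8* at −1.51 (−1.82 to −1.20), beside −0.10. The summed enveloping layer list was at 879 and 518 CPM in these cells. It contains both genes and the 4 keratin genes of the selection, so it is no separate observation. The keratin limit was set in raw UMIs, while the median depth of these cells was 3794 and 4622 UMIs. The part of either in these ratios was not tested. The largest ratios of all belonged to genes that also differed in all other cells, such as *higd1a* (3.12 over all high-*sox32* cells, beside 3.12), *p2rx4b* (3.81, beside 3.78) and *rrm2*. One identifier of *rrm2*, a ribonucleotide reductase gene, gave 5 and 1840 UMIs and the other 874 and 1, so that its reads may be split between them.

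**Figure D5:**
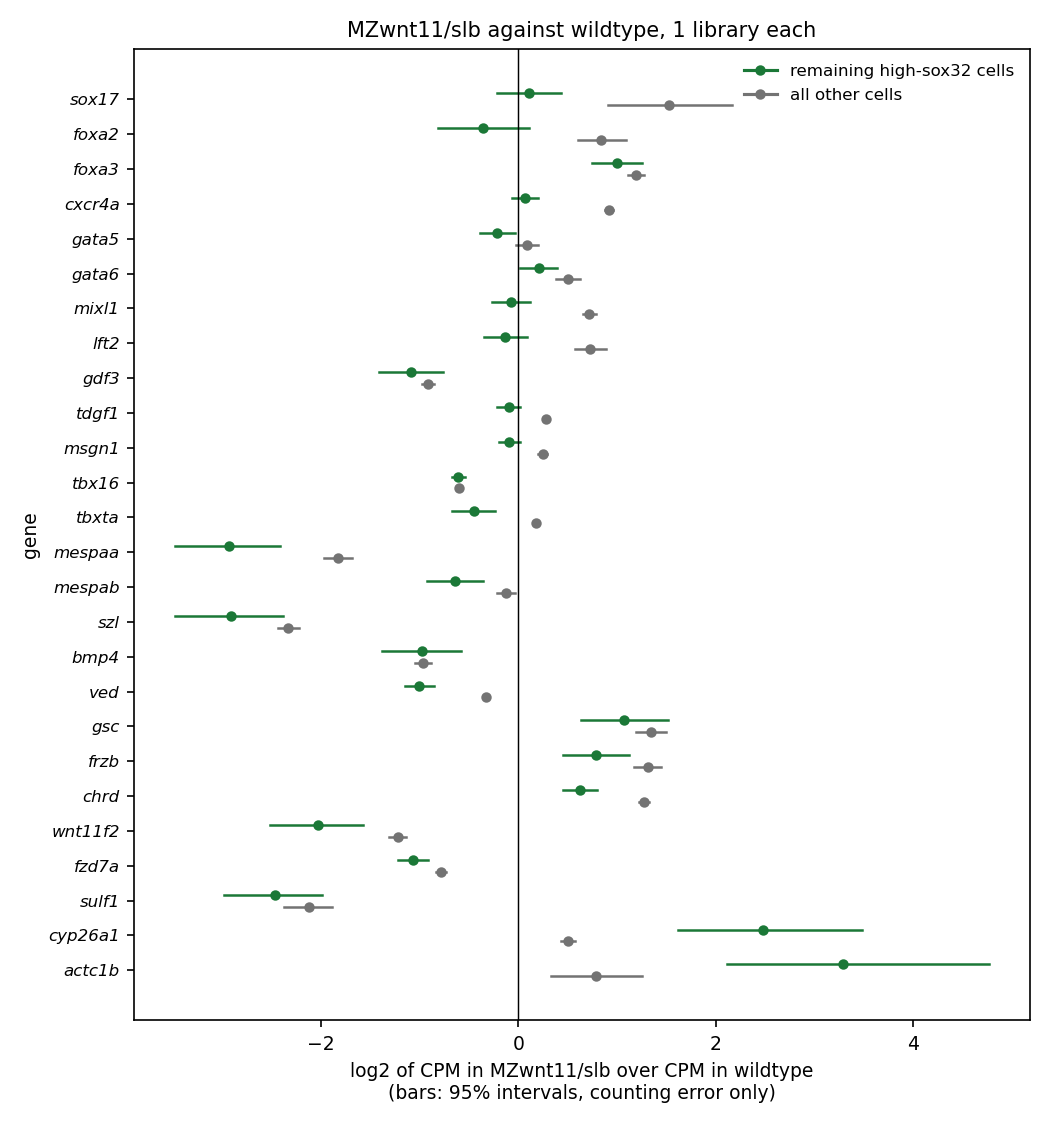
Log2 ratio of CPM in MZwnt11/slb over wildtype (x axis) for genes named in the text and a few further list genes (y axis), with green points for the remaining high-*sox32* cells, grey points for all other cells and 95% counting intervals as bars. *sox17*, *foxa2*, *cxcr4a*, *mixl1* and *lft2* have intervals that hold 0 in the remaining cells and lie at 0.72 or above in the other cells, while *actc1b* and *cyp26a1* lie further right in the remaining cells. The other cells include the high-*sox32* cells over the keratin limit.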

How the data were processed

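Embryos of both genotypes, wildtype and MZwnt11/slb, were at shield stage and were dissociated and fixed in acetic acid and methanol (ACME), frozen, sorted on DAPI for single cells and profiled with 10x Chromium 3′ v3.1 chemistry, 1 library per genotype. The deposited values are raw UMI counts per gene and barcode, which the authors made with Cell Ranger 6.1.1 according to the file headers, whereas the study's methods name a later version. The submitters' notes name the build GRCz11. For the annotation release and the handling of intronic reads: not given in the sources used here. A UMI tag collapses PCR copies, and counts per gene carry no information on mutated bases. The files hold 27597 genes. Where a symbol has more than 1 identifier (548 symbols), identifiers were kept apart in ratios over all genes and summed in marker limits and in comparisons between sets of cells. Median depth was 3873.5 and 4595 UMIs per cell.

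The members and gene lists were chosen with earlier results of these data known. No cell was filtered and no doublet caller was run. UMIs were summed per library and cell set and divided by the set's total (CPM). Log2 ratios carry exact conditional Poisson intervals and shares carry exact binomial intervals at 95%. A sum of 0 was set to a floor of 3. Genes needed at least 100 UMIs in the selected cells of both libraries together. With 1 library per genotype no p-value was computed, and a gene was called at 2-fold, in both libraries where cells were set against other cells. *sox32* and the 4 keratin genes of the selection were left out of the counts against other cells. Those of them that reached the minimum stayed in the counts between genotypes.

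Cell groups for comparison were named by at least 3 UMIs of *gsc*, *frzb* and *nog1* (prechordal plate), of *msgn1*, *mespaa*, *mespab* and *mespba* (paraxial mesoderm) or of *foxi1* (ventral ectoderm), or at least 10 keratin UMIs (enveloping layer). The selected high-*sox32* cells and cells that met more than 1 limit were left out of these groups. Named genes were the 25 highest and 12 lowest against other cells, the 12 highest and 12 lowest between genotypes, the 8 highest and 8 lowest differences between members and other cells, the 10 highest correlations with *sox32*, and genes of the 18 lists. Correlations used log1p of UMIs per 10000. Scripts used Python 3.11.15, numpy 2.4.6, scipy 1.17.1, pandas 2.3.3 and matplotlib 3.10.9 and were tested on simulated data. Alternatives changed the limits on *sox32*, keratins, depth, gene counts and fold, the scaling, and the members with markers of other cell types.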

Additional observations from a re-analysis of the deposited data

Results flagged for a closer look

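Genes were looked at again where the ratio of MZwnt11/slb over wildtype had one sign in the high-*sox32* cells and the opposite sign in all other cells, with intervals that do not hold 0. With 1 library per genotype the difference was not tested as a difference between genotypes, and each value is the log2 ratio in the selected cells minus that in the other cells. The named genes include some that were picked for the highest and lowest of such differences. Counts among them therefore cannot show how common a change of sign is, and no count over all measured genes is given. Of 190 named and list genes, 4 were found over all high-*sox32* cells. They were the kinase gene *wnk4b*, with a difference of −2.08 (−1.24 beside 0.83), *gata6*, with −0.72 (−0.22 beside 0.50), the N-cadherin gene *cdh2*, with −0.62 (−0.38 beside 0.24), and the unfolded protein response gene *xbp1*, with −0.50 (−0.39 beside 0.12). In the remaining cells alone the genotype ratio was 0.49 for *wnk4b*, 0.21 for *gata6*, −0.09 for *cdh2* and 0.11 for *xbp1*. The share of yolk-marker cells, 22.0% and 11.1% of the selection, also differed, and its part in these values was not tested.

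Among the remaining high-*sox32* cells, 4 of 175 genes were found, and the same limit holds for this count. The FGF feedback gene *spry2* differed by −1.12 (−0.84 beside 0.28), *tbxta* by −0.63 (−0.45 beside 0.18) and *fscn1a* by −0.49 (−0.10 beside 0.39). The neural gene *sox19a* differed by 0.57, being at 0.53 in the remaining cells and at −0.04 in the others.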

How the results depend on the processing

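No paired analysis was possible because each genotype has 1 library, and for the same reason no replicate could be left out. Of 878 gene ratios recomputed under the alternatives, 722 stayed within their counting interval and 153 moved beyond it. A further 3 turned in sign, which was counted only for ratios past 2-fold as reported. Smaller ratios that turned in sign fall under the other counts. Without members with dorsal forerunner or yolk markers *vgll4l* was at −0.75 in wildtype and −0.40 in MZwnt11/slb, an alternative that removes cells by *vgll4l* itself. *mxtx1* was at −0.50 in wildtype without members with yolk markers or *foxj1a*. Those 878 cover the genes discussed most. Over all 190 named and list genes, of 107, 101 and 61 ratios past 2-fold (against other cells in wildtype and in MZwnt11/slb, and between genotypes), 12, 7 and 11 turned in sign without members with dorsal forerunner or yolk markers, and 15, 6 and 9 did without members with yolk markers or *foxj1a*. List counts stayed within 1.5 times in 231 of 252 cases.

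The share of cells selected was 3.93% and 5.20% with at least 2 *sox32* UMIs, 2.56% and 3.59% with at least 5, and 2.59% and 3.82% after thinning. In MZwnt11/slb it was 5.03% with no keratin limit and 3.94% with fewer than 3 keratin UMIs. The wildtype share with yolk markers was 16.7% with at least 5 *sox32* UMIs, 14.8% in thinned cells and 11.9% when the selection followed thinning.

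The counts of genes depend on the gene minimum and the fold by construction. In the order higher than other cells, lower than other cells, higher in MZwnt11/slb and lower in MZwnt11/slb, 197, 48, 107 and 173 genes became 101, 19, 34 and 51 at a minimum of 300 UMIs, 479, 239, 800 and 1270 at 10 UMIs, and 131, 25, 61 and 62 in thinned cells. At 1.5-fold the last 3 counts were 98, 432 and 430, and at 3-fold 20, 32 and 51. Without members with dorsal forerunner or yolk markers 89 were higher and 28 lower than other cells, and 69 lower in MZwnt11/slb. In alternatives chosen after seeing the data, genes higher than other cells and lower in MZwnt11/slb numbered 126 and 100 without members with yolk markers, and 122 and 95 without those or *foxj1a* cells. Median-of-ratios scaling placed the median genotype ratio at 0.11, beside 0.03 as reported.

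With 1 library each, embryo-to-embryo spread is unknown. *sox17*, *ndr1*, *foxa2* and *foxj1a* rest on few UMIs per cell, which limits what a cell without a UMI shows.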
